A study of Caenorhabditis elegans with 9 samples.

Results

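The dhs genes of Caenorhabditis elegans, named for short-chain dehydrogenases, were followed in whole worms given RNA interference (RNAi) by feeding. Rows of the count table whose WBcel235 gene name begins with dhs- and a number were taken, without dhs-28, which left 29 genes of the 46748 listed. All 9 libraries came from N2 wild-type hermaphrodites aged 5 days, with 3 libraries per group. The H28O16.1 group received RNAi against the gene of that sequence name, atp-1, which encodes a catalytic-part subunit (alpha) of mitochondrial ATP synthase. The B0395.3 group received RNAi against B0395.3, a relative of carnitine acyltransferases. The L4440 group carried the empty feeding vector and was the control. In feeding RNAi, worms eat bacteria that make double-stranded RNA matching the target, so a message is lowered rather than removed, to an extent that can differ between tissues. The labels name no separate cultures behind the libraries, so the p-values speak only of the differences among these libraries, which could be technical in part.

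Short-chain dehydrogenases are oxidoreductases that bind NAD(H) or NADP(H) through a Rossmann fold and carry a catalytic tyrosine and lysine. Members of the superfamily convert steroids, retinoids, sugars, fatty acyl groups and foreign compounds, usually between an alcohol and a ketone or aldehyde. Most worm dhs genes were named from sequence alone. Functions are known for dhs-3, whose product coats lipid droplets of the intestine, for dhs-16, a dehydrogenase in the synthesis of the steroid hormone dafachronic acid, and for dhs-21, which encodes an L-xylulose reductase.

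The libraries held between 31236614 and 40990685 counts. Each targeted message was lower under its own RNAi. That of atp-1 stood at 70.7 ± 4.35 CPM (counts brought to a common library size; SD, n = 3) in H28O16.1, against 1945 ± 72 CPM in L4440. The B0395.3 message stood at 13.9 ± 2.23 CPM in B0395.3 libraries, against 33.6 ± 1.77 CPM in L4440. It was also lower than in L4440 under H28O16.1 RNAi, at 25.6 ± 2.52 CPM. The atp-1 message was slightly lower than in L4440 under B0395.3 RNAi, at 1762 ± 50.2 CPM. Low-count genes were removed with edgeR's filterByExpr at a minimum of 10, which left 14622 of 46748 genes for testing, all 29 dhs genes among them.

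The dhs genes are spread over every nuclear chromosome of the WBcel235 build, with 12 on chromosome V, 5 on X, 4 each on I and II and 2 each on III and IV. All 29 are annotated as protein coding, 21 have 1 transcript, and 22 lie on the minus strand. Their exons cover 796 to 2170 bp. The closest pair is dhs-14 (V, 2763981 to 2765200) and dhs-15 (V, 2768361 to 2769854), which lie 3161 bp apart on the minus strand. The library kit does not mark strand, and 15 members have exons that overlap a gene on the opposite strand, by at most 7.9% of their exon bases (dhs-5). On the same strand, exons of dhs-12 overlap a pseudogene over 8.34% of their bases and gst-4, a glutathione S-transferase gene, over 3%, and those of dhs-20 overlap idpp-16 over 5.62%. The sources used here do not say how reads in such overlaps, or reads that match several related dhs genes, were counted.

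Levels per gene length spanned a wide range in the control. In RPKM computed here (counts per kilobase of exon, scaled by the library's own total), dhs-22 stood highest at 175 ± 3.12 (SD, n = 3) in L4440 and made up 21.1% of the summed level of the 29 genes. Next came dhs-3 (81.4 ± 3.98), dhs-6 (80.2 ± 1.64) and dhs-1 (78.7 ± 0.198). Library ranges overlapped between dhs-3 and dhs-6 and between dhs-6 and dhs-1, but not between dhs-1 and the next gene, dhs-13. The gene in the fifth place, dhs-13, stood at 75.9 ± 1.61 RPKM, and the upper 5 genes together held 59.4% of the summed level. At the low end were dhs-8 (1.04 ± 0.236), dhs-4 (0.619 ± 0.324), dhs-16 (0.455 ± 0.0621) and dhs-15 (0.431 ± 0.126), whose ranges overlapped from each to the next. In B0395.3 libraries dhs-3 stood at 52.4 ± 1.72 RPKM, under dhs-1 (79.9 ± 0.944), dhs-13 (80.0 ± 1.66) and dhs-6 (78.7 ± 1.58). In H28O16.1 libraries dhs-22 remained highest in level, at 183 ± 7.70 RPKM, ahead of dhs-1 at 88.0 ± 4.27.

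**Figure D1:**
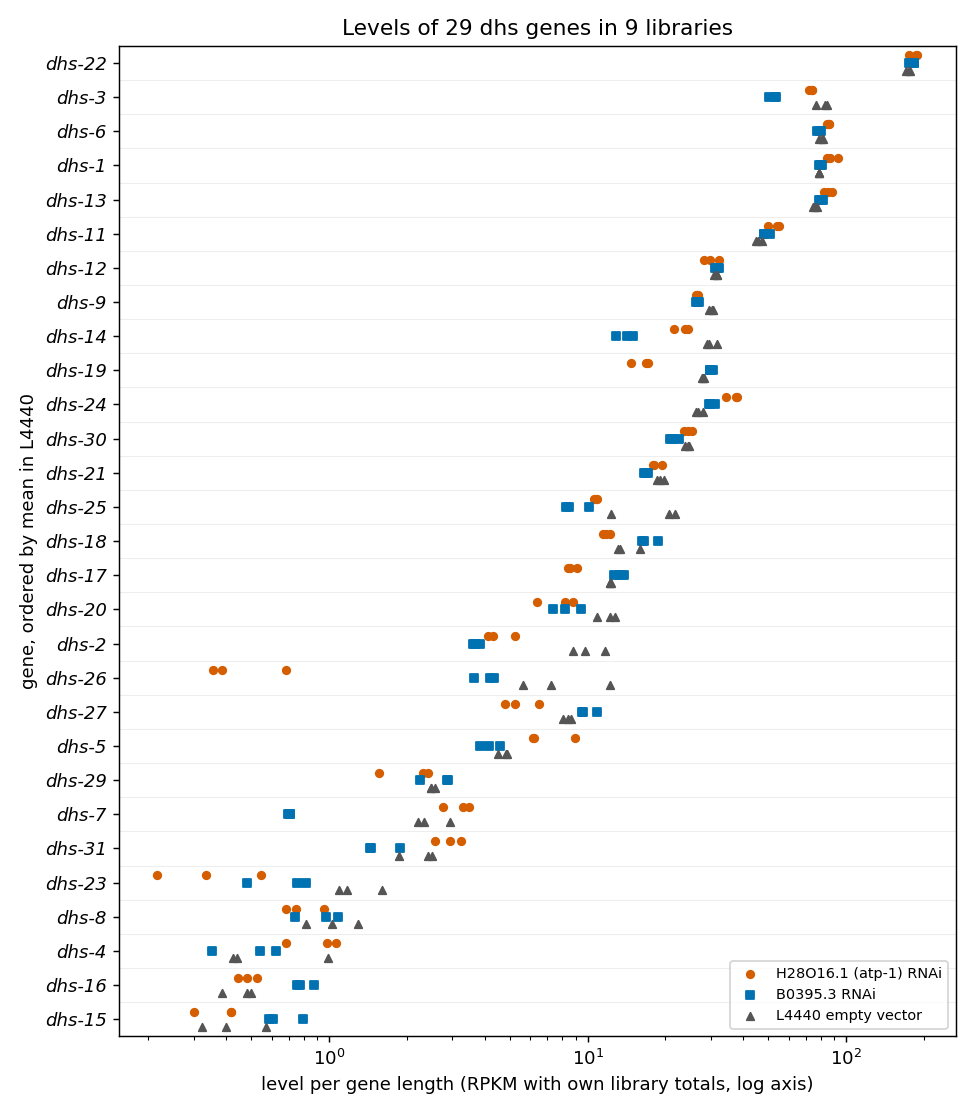
Level per gene length (x axis, RPKM with own library totals, log axis) of the 29 dhs genes (y axis, ordered by their mean in L4440), with 1 symbol per library: circles for H28O16.1, squares for B0395.3 and triangles for L4440. dhs-22 lies highest in all groups, and the H28O16.1 symbols of dhs-26 (mean 0.475 RPKM) lie far to the left of those of L4440 (mean 8.36 RPKM).

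H28O16.1 RNAi was compared with L4440 to see which transcripts differ in worms treated against atp-1. More dhs genes fell than rose, and the largest fall was that of dhs-26. Genes were tested with edgeR's quasi-likelihood test over all 9 libraries, and those with a Benjamini-Hochberg adjusted p under 0.05 are called changed. Of the 29 members 12 fell, 5 rose and 12 did not pass. Members that fell made up 41.4%, against 31.2% of all genes tested, and members that rose made up 17.2%, against 26.3%. In all 58.6% of members changed, close to the 57.6% of all genes, and 3 members changed over 2-fold (11.8% of all genes did). The libraries of the groups did not overlap for 18 members, and for 61.4% of all genes. The median log2 fold change of the members was -0.21, against -0.00 for all genes.

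In H28O16.1 replicates 1 to 3, dhs-26 (X, 3360722 to 3362493) had 0.418, 0.439 and 0.783 CPM, against 6.71, 14.8 and 8.52 CPM in L4440. Every H28O16.1 library lay under every L4440 library by a wide margin, although the L4440 libraries differed among themselves. edgeR gave a log2 fold change of -4.16 (SE 0.33, adjusted p = 2.26e-07), from 14 to 32 counts in H28O16.1 libraries and 244 to 553 in L4440 libraries. Without L4440 replicate 2, the highest, it was -3.77. A protein-coding gene on the opposite strand, ZK816.1, covers 4.64% of the exon bases of dhs-26.

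The second largest fall was in dhs-23 (V, 15381219 to 15382271), a gene with few counts. It had 0.209, 0.314 and 0.514 CPM in H28O16.1, against 1.07, 1.60 and 1.14 CPM in L4440, with no overlap (log2 fold change -1.85, SE 0.30, adjusted p = 0.00017, edgeR). The counts behind these values were 8 to 21 in H28O16.1 and 39 to 60 in L4440. The dhs-2 message (I, 5354181 to 5357029) had 5.20, 6.21 and 4.89 CPM in H28O16.1, against 10.9, 14.7 and 12 CPM in L4440. Its groups did not overlap (log2 fold change -1.21, SE 0.12, adjusted p = 1.54e-06).

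The fall of dhs-19 (V, 11489048 to 11490482) was precise. Its H28O16.1 libraries had 16.7, 18.7 and 19.1 CPM, against 32.7, 32.7 and 31.9 CPM in L4440 (log2 fold change -0.84, SE 0.06, adjusted p = 3.79e-08, edgeR). The values within each group lay close together compared with the gap between the groups. For dhs-25 (X, 1486532 to 1489326) the H28O16.1 libraries had 10.6, 10.4 and 10.6 CPM, against 22, 21.2 and 12.3 CPM in L4440. The groups did not overlap, but L4440 replicate 3 stood near the H28O16.1 values. For this gene the change was -0.81 log2 units (SE 0.17, adjusted p = 0.00109). The other 7 members that fell were dhs-20 (-0.67), dhs-27 (-0.65), dhs-17 (-0.54), dhs-14 (-0.42), dhs-18 (-0.31), dhs-9 (-0.24) and dhs-3 (-0.21), all as log2 fold changes. The dhs-18 call was lost without L4440 replicate 3 (adjusted p = 0.0507).

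All 5 rises were modest. The largest, dhs-5 (II, 5453847 to 5455977), had 8.25, 8.09 and 11.7 CPM in H28O16.1, against 6.60, 6.74 and 6.07 CPM in L4440. The groups did not overlap, with H28O16.1 replicate 3 highest (log2 fold change 0.54, SE 0.13, adjusted p = 0.00331, edgeR). The dhs-24 message (V, 19934767 to 19946629) had 71.0, 69.6 and 63.2 CPM in H28O16.1, against 54.1, 51.1 and 51.3 CPM in L4440, also without overlap (log2 fold change 0.38, SE 0.05, adjusted p = 1.24e-05).

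Among the most abundant members, dhs-11, dhs-13 and dhs-1 rose slightly. Values for dhs-11 (III, 10640836 to 10642865) were 44.2, 42.3 and 38.9 CPM in H28O16.1, against 36.7, 37.9 and 38.3 CPM in L4440 (log2 fold change 0.15, adjusted p = 0.0198, edgeR). For dhs-13 (V, 1765311 to 1771734) they were 108, 113 and 109 CPM in H28O16.1, against 102, 105 and 98.8 CPM in L4440 (0.11, adjusted p = 0.0126). For dhs-1 (I, 5278803 to 5281519) they were 107, 111 and 102 CPM in H28O16.1, against 98.9, 99.8 and 98.2 CPM in L4440 (0.11, adjusted p = 0.0153). In none of these genes did the groups overlap, but the smallest gap was that of dhs-11, between 38.9 and 38.3 CPM. Without H28O16.1 replicate 2 these 3 calls were lost (adjusted p = 0.0562, 0.0527 and 0.0732 for dhs-11, dhs-13 and dhs-1), which left 2 rises. The dhs-11 call was also lost without H28O16.1 replicate 1 (0.0826) or L4440 replicate 1 (0.0580).

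The 12 members that did not pass in H28O16.1 against L4440 had log2 fold changes between -0.43 (dhs-8) and 0.50 (dhs-4). Among them were dhs-29 (-0.32), dhs-15 (-0.25), dhs-12 (-0.12), dhs-30 (-0.04), dhs-6 (0.04) and dhs-31 (0.31). The groups of dhs-4 overlapped, with 1.04, 1.1 and 0.709 CPM in H28O16.1, against 1.07, 0.481 and 0.455 CPM in L4440, and L4440 replicate 1 stood apart from the other controls.

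**Figure D2:**
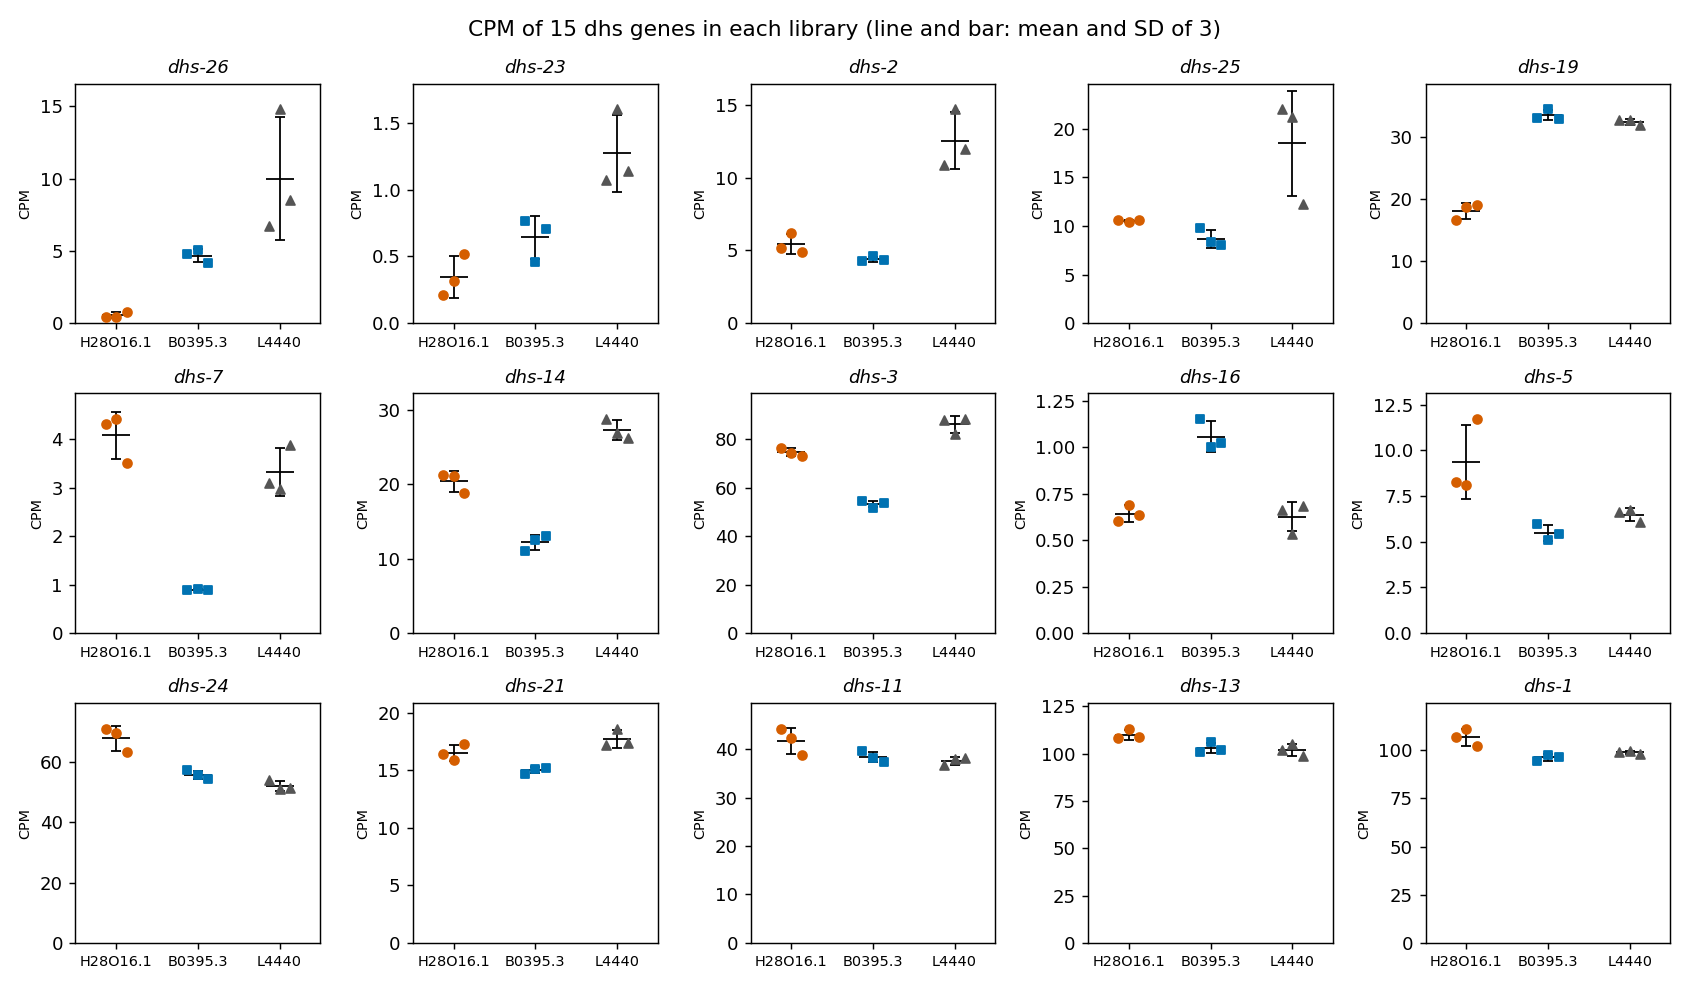
CPM (y axis, from 0) of 15 dhs genes in each library, for the groups H28O16.1, B0395.3 and L4440 from left to right; symbols are libraries, and the line and bar are the mean and SD of 3. In dhs-7 the B0395.3 libraries lie between 0.885 and 0.914 CPM, under every library of the other groups, and in dhs-19 the H28O16.1 libraries lie between 16.7 and 19.1 CPM, under all others.

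B0395.3 RNAi was set against these same L4440 libraries, so both comparisons share their controls. Falls dominated: 13 of 29 dhs genes fell, 1 rose and 15 did not pass. Members that fell made up 44.8%, against 14.6% of all genes tested, and the 1 that rose made up 3.45%, against 12.6%. Over both directions 48.3% of members changed, against 27.2% of all genes. The median log2 fold change was -0.23 for the members and 0.01 for all genes, and 5 members changed over 2-fold (4.43% of all genes did). For 19 members the libraries of the groups did not overlap, beside 47.1% of all genes.

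The largest fall was in dhs-7 (II, 7206990 to 7208460). It had 0.885, 0.914 and 0.897 CPM in B0395.3, against 3.11, 2.97 and 3.89 CPM in L4440. The 3 B0395.3 libraries were almost equal and far under the control, but rested on 32 to 37 counts each, against 111 to 154 in L4440. edgeR gave a log2 fold change of -1.89 (SE 0.16, adjusted p = 2.08e-06). In H28O16.1 the same gene had 4.31, 4.42 and 3.52 CPM, which overlapped with L4440 (log2 fold change 0.29, adjusted p = 0.075), and it passed without H28O16.1 replicate 3 (adjusted p = 0.0174) or L4440 replicate 3 (0.0181).

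The dhs-2 message had 4.26, 4.60 and 4.32 CPM in B0395.3, against 10.9, 14.7 and 12 CPM in L4440. No B0395.3 library came near those of L4440 (-1.51 on the log2 scale, SE 0.12, adjusted p = 1.05e-06, edgeR). The dhs-14 message had 11.1, 12.5 and 13 CPM in B0395.3, against 28.8, 26.9 and 26.2 CPM in L4440 (log2 fold change -1.16, SE 0.07, adjusted p = 1.07e-07). Its neighbour dhs-15 had 0.574, 0.600 and 0.776 CPM in B0395.3, against 0.330, 0.588 and 0.405 CPM in L4440. There the groups overlapped, and the difference did not pass (log2 fold change 0.56, adjusted p = 0.138).

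In B0395.3 libraries dhs-26 had 4.78, 5.03 and 4.15 CPM, against 6.71, 14.8 and 8.52 CPM in L4440 (log2 fold change -1.11, SE 0.24, adjusted p = 0.00343, edgeR). The groups did not overlap, and without L4440 replicate 2 the log2 fold change was -0.72 (adjusted p = 0.00621). The dhs-25 message had 9.76, 8.34 and 8.00 CPM in B0395.3, against 22, 21.2 and 12.3 CPM in L4440 (-1.08, SE 0.17, adjusted p = 0.000392). Here too all B0395.3 libraries lay under L4440 replicate 3, the lowest control.

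The other 8 members that fell in B0395.3 were dhs-23 (-0.96), dhs-3 (-0.70), dhs-20 (-0.58), dhs-31 (-0.57), dhs-21 (-0.24), dhs-9 (-0.23), dhs-30 (-0.23) and dhs-6 (-0.09), as log2 fold changes. Of these, dhs-23 did not pass without B0395.3 replicate 2 (adjusted p = 0.0719) or L4440 replicate 2 (0.0822). The dhs-31 call was lost without B0395.3 replicate 1 (adjusted p = 0.0924), B0395.3 replicate 3 (0.0914), L4440 replicate 1 (0.0762) or L4440 replicate 2 (0.0967). The dhs-6 difference was small, at 111 to 113 CPM in B0395.3, against 118 to 121 CPM in L4440. It was lost without B0395.3 replicate 1 (adjusted p = 0.0513), replicate 2 (0.113) or replicate 3 (0.0762) and without L4440 replicate 1 (0.120) or replicate 3 (0.0821).

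The 1 rise was in dhs-16 (V, 5983745 to 5985509). It had 1.15, 0.999 and 1.02 CPM in B0395.3, against 0.660, 0.535 and 0.683 CPM in L4440, from 35 to 48 counts in B0395.3 and 20 to 27 in L4440. The groups did not overlap (log2 fold change 0.75, SE 0.18, adjusted p = 0.00781, edgeR), but with DESeq2's Wald test the adjusted p was 0.0711. In H28O16.1 it had 0.601, 0.690 and 0.636 CPM, which overlapped with L4440 (log2 fold change 0.03, adjusted p = 0.925).

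The 15 members that did not pass in B0395.3 against L4440 had log2 fold changes between -0.32 (dhs-4) and 0.56 (dhs-15). Without L4440 replicate 1 that of dhs-4 was 0.19. Below 0 were also dhs-5 (-0.24), dhs-8 (-0.23), dhs-12 (-0.05), dhs-1 (-0.04) and dhs-22 (-0.01). Above 0 were dhs-18 (0.23), dhs-27 (0.20), dhs-24 (0.10), dhs-17 (0.06), dhs-19 (0.05), dhs-11 (0.03), dhs-29 (0.03) and dhs-13 (0.02).

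A split of the members by level at 20 CPM was chosen after the values were seen. The 11 members with a mean of at least 20 CPM over all libraries had a median absolute log2 fold change of 0.12 in H28O16.1 against L4440, and the 18 members under 20 CPM had one of 0.47. Over all genes tested the same medians were 0.19 and 0.40. In B0395.3 against L4440 the medians were 0.05 for the 11 members and 0.57 for the 18, beside 0.06 and 0.28 over all genes. The most abundant member, dhs-22, had 218, 208 and 196 CPM in H28O16.1, 206, 199 and 206 in B0395.3 and 206, 203 and 206 in L4440. All groups of dhs-22 overlapped, and its log2 fold changes of 0.02 (H28O16.1) and -0.01 (B0395.3) did not pass (adjusted p = 0.710 and 0.861, edgeR). The summed CPM of all 29 members was 984 ± 23.9 in H28O16.1, 934 ± 2.53 in B0395.3 and 1030 ± 11.8 in L4440 (SD, n = 3 each).

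**Figure D3:**
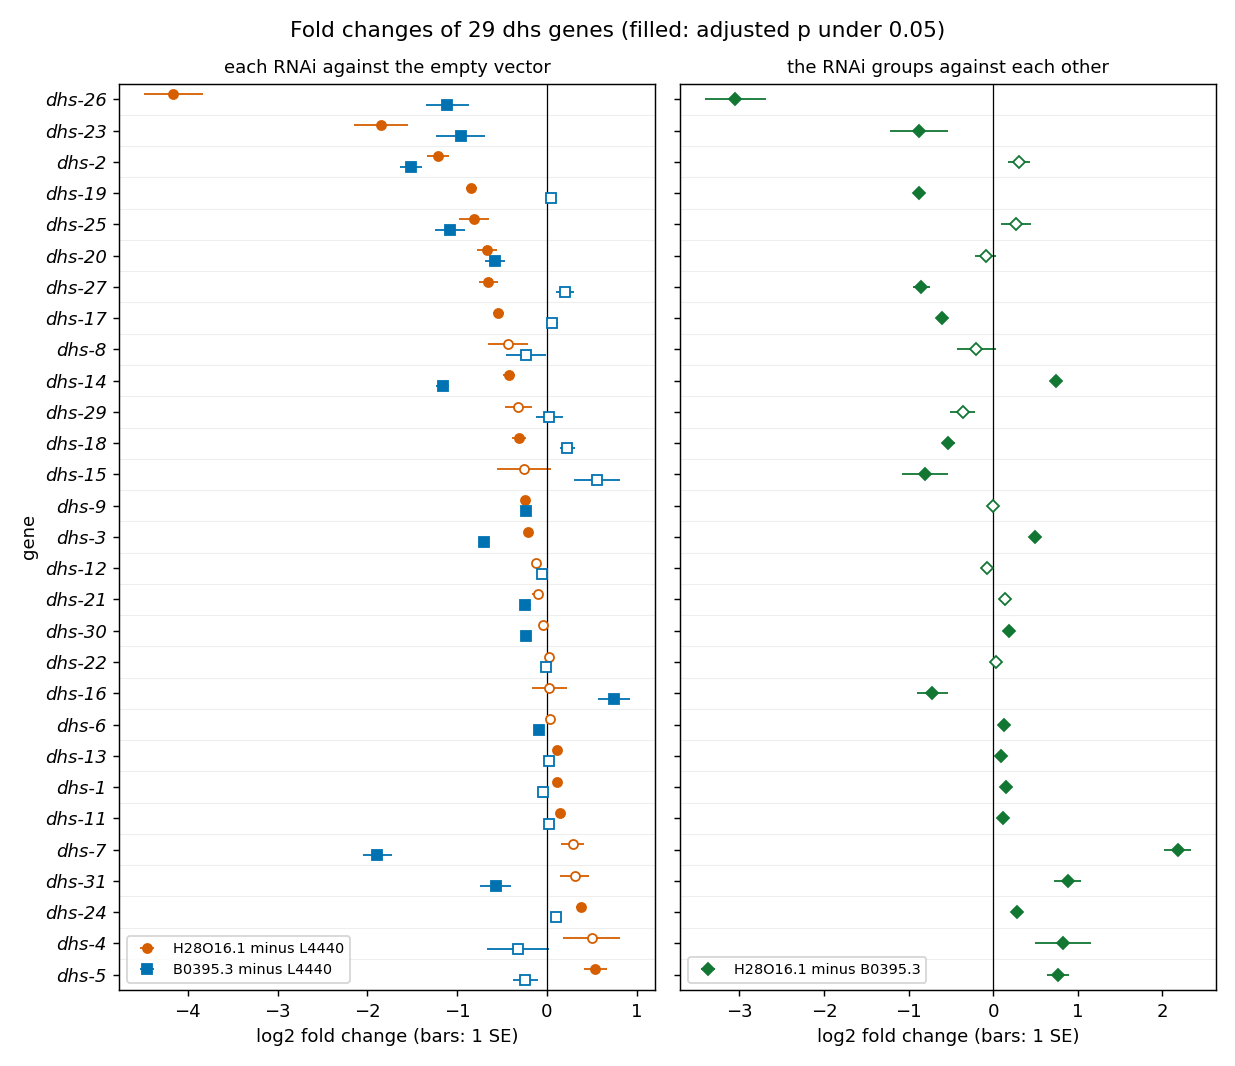
Log2 fold changes (x axis) of the 29 dhs genes (y axis, ordered by H28O16.1 minus L4440), with bars of 1 SE; filled symbols have an adjusted p under 0.05. The left panel holds H28O16.1 (circles) and B0395.3 (squares) against L4440, which share the control libraries, and the right panel H28O16.1 minus B0395.3. dhs-26 (-3.05) and dhs-7 (2.18) lie farthest out in the right panel.

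H28O16.1 was set directly against B0395.3, which tests whether the effects of the RNAi treatments differ. Of the 29 members 12 were higher in H28O16.1, 8 were lower and 9 did not pass. These shares were 41.4% higher and 27.6% lower, against 30.5% and 32.1% of all genes, and 69.0% of members differed in either direction, against 62.6% of all genes. The groups did not overlap for 21 members (66.8% of all genes), and 2 members differed over 2-fold (15.3% of all genes). The dhs-7 message was higher in H28O16.1 by a log2 fold change of 2.18 (SE 0.16, adjusted p = 7.83e-08, edgeR). That of dhs-26 was lower in H28O16.1 (log2 fold change -3.05, SE 0.36, adjusted p = 8e-06).

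Beside dhs-7, the members higher in H28O16.1 than in B0395.3 were dhs-31 (0.88), dhs-4 (0.82), dhs-5 (0.77), dhs-14 (0.74), dhs-3 (0.49), dhs-24 (0.28), dhs-30 (0.19), dhs-1 (0.15), dhs-6 (0.13), dhs-11 (0.12) and dhs-13 (0.09). Beside dhs-26, those lower were dhs-19 (-0.88), dhs-23 (-0.88), dhs-27 (-0.85), dhs-15 (-0.81), dhs-16 (-0.72), dhs-17 (-0.60) and dhs-18 (-0.53). The groups overlapped for dhs-23 (SE 0.34) and dhs-11. For dhs-27 the values were 5.17, 5.46 and 6.85 CPM in H28O16.1, against 10.1, 10.1 and 11.4 CPM in B0395.3, and no library overlapped. With DESeq2's Wald test the calls of dhs-4 (adjusted p = 0.0711), dhs-11 (0.0552), dhs-15 (0.112), dhs-16 (0.0541) and dhs-23 (0.0684) were lost. Upper-quartile scaling in edgeR lost the calls of dhs-4 (adjusted p = 0.0542), dhs-11 (0.0878) and dhs-13 (0.0951), which left 9 members higher. The dhs-11 call was also lost with limma voom (0.0587) and in an edgeR fit of these groups alone (0.0679). Calls for 5 genes were lost when single libraries were left out. The dhs-4 call was lost without H28O16.1 replicate 1 or 2 or B0395.3 replicate 2 or 3 (highest adjusted p = 0.143). For dhs-11 this held for H28O16.1 replicates 1 and 2, all B0395.3 replicates and L4440 replicates 2 and 3 (highest 0.186). For dhs-13 it held for H28O16.1 replicate 2 and B0395.3 replicates 1 and 3 (highest 0.103), for dhs-15 for replicate 3 of either group (highest 0.0902), and for dhs-23 for H28O16.1 replicates 1 and 2 and B0395.3 replicates 1 and 3 (highest 0.146). For dhs-2, dhs-25, dhs-20 and dhs-9 the differences between the RNAi groups did not pass, at 0.30 (SE 0.13), 0.27 (SE 0.18), -0.09 (SE 0.12) and -0.00 (SE 0.04) log2 units. The same held for dhs-29 (-0.36), dhs-8 (-0.20), dhs-12 (-0.07), dhs-22 (0.03) and dhs-21 (0.14). The dhs-2 difference passed without H28O16.1 replicate 3 (adjusted p = 0.0264), L4440 replicate 1 (0.0408) or L4440 replicate 2 (0.0271), and that of dhs-25 passed without L4440 replicate 3 (0.0111). Both also passed in edgeR without a low-count filter (adjusted p = 0.0133 for dhs-2 and 0.00365 for dhs-25). The same held in an edgeR fit of these groups alone (0.0361 for dhs-2 and 0.02 for dhs-25).

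The lipid droplet gene dhs-3 (I, 8212362 to 8218324) was lower in both RNAi groups. It had 76.4, 74.5 and 73.1 CPM in H28O16.1, 54.3, 51.7 and 53.5 CPM in B0395.3 and 87.9, 82.2 and 88.3 CPM in L4440. The 3 groups did not overlap, with B0395.3 lowest. The log2 fold changes against L4440 were -0.21 (SE 0.04, adjusted p = 0.000379) in H28O16.1 and -0.70 (SE 0.04, adjusted p = 3.64e-08) in B0395.3 (edgeR). Among other genes listed for lipid droplets, 14 were tested once cct-1 (a chaperonin subunit) and mdt-28 (a Mediator subunit) were set aside as wrongly listed. In H28O16.1 7 of these rose and 4 fell, beside 26.3% higher and 31.2% lower of all genes. In B0395.3 0 rose, 5 fell and 9 did not pass, beside 12.6% higher and 14.6% lower of all genes. With the wrongly listed genes the counts were 8 and 4 of 16 in H28O16.1 and 0 and 5 of 16 in B0395.3.

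The triacylglycerol synthesis gene dgat-2 stood at 24.7 ± 3.92 CPM in H28O16.1, 8.32 ± 0.415 in B0395.3 and 12.5 ± 0.487 in L4440 (SD, n = 3 each). It rose in H28O16.1 (log2 fold change 0.97, adjusted p = 1.8e-06) and fell in B0395.3 (-0.59, adjusted p = 0.000931). The perilipin gene plin-1, whose product also coats lipid droplets, fell in both (-0.16 in H28O16.1 and -0.20 in B0395.3). In H28O16.1 pcyt-1, a gene of phosphatidylcholine synthesis, fell by 1.09 log2 units while acs-22, of the acyl-CoA synthetase family, rose (0.31). In B0395.3 ldp-1 (-0.20) and the acyltransferase gene mboa-2 (-0.14) fell.

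Around dhs-16, the pathway of dafachronic acid was measured through 9 other genes. In H28O16.1 3 rose, 1 fell and 5 did not pass, where 57.6% of all genes changed. In B0395.3 3 rose, 2 fell and 4 did not pass, where 27.2% of all genes changed. The gene for the cholesterol desaturase daf-36, which acts early in the pathway, stood at 11.3 ± 1.13 CPM in H28O16.1, 7.88 ± 0.753 in B0395.3 and 11.7 ± 0.394 in L4440. It fell in B0395.3 (log2 fold change -0.56, adjusted p = 0.000483), where the sterol transport genes ncr-1 (0.38) and ncr-2 (0.68) rose, and in H28O16.1 its value was -0.04 (adjusted p = 0.696, edgeR). The cytochrome P450 gene daf-9, which completes the hormone, stood at 0.771 ± 0.130 CPM in H28O16.1, 0.732 ± 0.228 in B0395.3 and 0.559 ± 0.112 in L4440 and passed in neither comparison. The receptor gene daf-12 rose in H28O16.1 (0.35), as did ncr-2 (0.38), and its co-regulator gene din-1 fell there (-0.38) but rose in B0395.3 (0.19, adjusted p = 0.0494). The P450 reductase gene emb-8 rose in H28O16.1 (0.27) and fell in B0395.3 (-0.12).

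The L-xylulose reductase gene dhs-21 (V, 12731767 to 12733645) had 16.4, 15.9 and 17.3 CPM in H28O16.1, 14.7, 15.1 and 15.2 CPM in B0395.3 and 17.2, 18.6 and 17.4 CPM in L4440. H28O16.1 overlapped with L4440 (log2 fold change -0.10, SE 0.06, adjusted p = 0.161), whereas B0395.3 lay under it (-0.24, SE 0.06, adjusted p = 0.00829, edgeR). The difference between the RNAi groups did not pass (0.14, SE 0.06, adjusted p = 0.056). It passed without H28O16.1 replicate 2 (adjusted p = 0.0467) and with DESeq2's size factors in edgeR (0.0471).

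Among 10 tested genes of other short-chain dehydrogenases and related reductases, 1 rose and 5 fell in H28O16.1, beside 26.3% and 31.2% of all genes, and 1 rose and 5 fell in B0395.3, beside 12.6% and 14.6%. In both groups let-767, a steroid and fatty acyl dehydrogenase gene, fell, to 196 ± 4.24 CPM in H28O16.1 and 184 ± 4.72 in B0395.3, against 221 ± 8.37 in L4440. The steroid dehydrogenase family gene stdh-1 fell as well (-0.28 in H28O16.1 and -0.56 in B0395.3). The dienoyl-CoA reductase gene decr-1.1 fell more in H28O16.1 (-0.39) than in B0395.3 (-0.15), a difference that passed (-0.24, adjusted p = 0.000461). The fatty acyl reductase gene fard-1 fell in H28O16.1 (-0.27) and rose in B0395.3 (0.16). In B0395.3 the dihydropteridine reductase gene qdpr-1 also fell (-0.24). The peroxisomal dehydrogenase gene dhs-28 stood at 66.2 ± 1.1 CPM in H28O16.1, 65.3 ± 2.89 in B0395.3 and 69.4 ± 1.11 in L4440, and passed in neither comparison (adjusted p = 0.149 and 0.106).

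In whole worms, fewer cells of a tissue and less RNA per cell cannot be told apart. In H28O16.1 genes of each marker list changed in both directions, except that 0 muscle markers fell. In B0395.3 more fell than rose in each list except the neuronal one. Of all genes tested, 26.3% rose and 31.2% fell in H28O16.1, and 12.6% rose and 14.6% fell in B0395.3. Of 13 intestinal markers, 5 rose and 6 fell in H28O16.1, among them ifb-2 (0.66), pept-1 (-0.92), cpr-6 (-0.23) and pho-1 (-0.55). In B0395.3 6 fell, among them cpr-6 (-0.55), asp-1 (-0.74), ges-1 (-0.59) and act-5 (-0.50), and 2 rose, which were pept-1 (0.46) and mtl-2 (0.28). Their summed level was 2166 to 2357 CPM in H28O16.1, 1703 to 1748 in B0395.3 and 2308 to 2367 in L4440. Among 10 muscle markers, 4 rose and 0 fell in H28O16.1, and 0 rose and 8 fell in B0395.3, including the troponin genes unc-27 (-0.92) and tnt-2 (-1.26), with sums of 1017 to 1506 CPM in H28O16.1, 643 to 720 in B0395.3 and 964 to 1165 in L4440. Of 20 germ line and embryo markers, 4 rose and 12 fell in H28O16.1, with the smallest p for oma-2 (-0.77), and 0 rose and 9 fell in B0395.3. These summed to 18863 to 19686 CPM in H28O16.1, 20718 to 21454 in B0395.3 and 22258 to 23124 in L4440. Epidermal markers (10) showed 2 rises and 3 falls in H28O16.1 and 1 rise and 3 falls in B0395.3, with the smallest p for col-19 (-0.58) in H28O16.1, where wrt-2 fell most (-1.80), and for grd-5 (-1.34) in B0395.3. Their sums were 340 to 356 CPM in H28O16.1, 287 to 298 in B0395.3 and 331 to 365 in L4440. Of 12 neuronal markers, 2 rose and 2 fell in H28O16.1 and 1 rose and 0 fell in B0395.3, with sums of 111 to 149 CPM in H28O16.1, 124 to 140 in B0395.3 and 120 to 124 in L4440. No marker was at 0 in any group. The mitochondrial share of the counts was 0.301% to 0.427% in H28O16.1, 0.622% to 0.630% in B0395.3 and 0.639% to 0.666% in L4440. The share of ribosomal RNA was 0.107% to 0.317% in H28O16.1, 0.206% to 0.294% in B0395.3 and 0.0869% to 0.102% in L4440. The part of these values in the dhs results was not tested.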

How the data were processed

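Raw counts per gene, as whole numbers and not normalized by the authors, were taken from their deposited table. The submitters' processing notes name the build WBcel235 and the tools featureCounts 1.4.6-p4, bcl2fastq 1.8.4 and STAR 2.4.1d. Their roles, the annotation release and the counting settings are not stated there. Per the labels' protocols, the kit was Illumina's TruSeq RNA v2. The authors' deposited RPKM were used for no result: over 3629 genes with more than 2000 counts in every library, the gene length they imply varied by 12.6% (median coefficient of variation) with own library totals and by 0.000346% with totals that cycle down the genes.

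Names, positions and exon lengths came from the Ensembl 115 annotation of WBcel235. edgeR 4.0.16 in R 4.3.3 was run with TMM scaling and a two-sided quasi-likelihood fit over all 9 libraries, and p-values were adjusted over 14622 genes. CPM are TMM-scaled. An SE is the absolute log2 fold change divided by the square root of the F statistic. With 3 libraries a group, the smallest p of an exact permutation test is 0.1, so genes were tested with models and not by permutation. The code was tested on simulated data. The members and lists were chosen with earlier results of these data known. Values in every library are given for the 5 members that rose most and the 5 that fell most (of those changed) in each comparison with L4440, and for dhs-3, dhs-16 and dhs-21; dhs-4, dhs-15, dhs-22 and dhs-27 were added after their values were seen. From each list up to 4 members with the smallest p were named, and other list members (daf-9, dhs-28, mtl-2, wrt-2, din-1 and pept-1 in B0395.3, and plin-1 in H28O16.1) were chosen after their values were seen. Alternatives were other scalings and filters, DESeq2 1.42.0, limma 3.58.1 voom, fits of 2 groups and leaving out each library. No sequences are shown.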

Additional observations from a re-analysis of the deposited data

How the results depend on the processing

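No paired analysis was possible because the labels give no replicate numbers; the numbers used here follow record order. Over 29 members and 3 comparisons, 49 of 87 log2 fold changes kept their direction and their side of the threshold in every alternative, 29 crossed the threshold in at least 1, and 10 turned their sign in at least 1, of which 0 had passed in the main test. Without single libraries the turned values ranged, in B0395.3 against L4440, over -0.53 to 0.19 for dhs-4 (above 0 without L4440 replicate 1), -0.00 to 0.04 for dhs-13, -0.02 to 0.01 for dhs-22 and -0.02 to 0.13 for dhs-29. In H28O16.1 against L4440 they ranged over -0.41 to 0.01 for dhs-15, -0.07 to 0.11 for dhs-16 and -0.02 to 0.06 for dhs-22. In H28O16.1 against B0395.3 they ranged over -0.02 to 0.02 for dhs-9, -0.19 to 0.03 for dhs-20 and -0.01 to 0.07 for dhs-22. With upper-quartile scaling dhs-22 turned in B0395.3 against L4440 (0.01) and in H28O16.1 against B0395.3 (-0.00). In that last comparison dhs-9 turned with DESeq2's size factors (0.00), no filter (0.01), DESeq2 (0.01) and a fit of these groups alone (0.00). The number of members higher in B0395.3 than in L4440 was the least stable: 1 in the main test, 2 with DESeq2's size factors in edgeR, 2 with upper-quartile scaling, 2 without a filter, 0 with a minimum count of 50, 0 with DESeq2's Wald test, 4 in a fit of these groups alone, and 1 to 4 when single libraries were left out. The 4 came without H28O16.1 replicate 3, and 2 without L4440 replicate 3. Members lower in that comparison numbered 13, and 11 to 14 without single libraries. For H28O16.1 against L4440, without single libraries 2 to 6 were higher (2 without H28O16.1 replicate 2) and 12 to 13 lower. For H28O16.1 against B0395.3, 8 were lower, but 5 with a minimum count of 50 and 5 with DESeq2's Wald test. At a minimum count of 50, dhs-4, dhs-8, dhs-15, dhs-16 and dhs-23 were removed by the filter and so were not tested. Members higher in H28O16.1 than in B0395.3 numbered 11 there, against 12 in the main test, with dhs-4 not tested. The loss of the 1 member higher in B0395.3 than in L4440 at that setting was this removal of dhs-16. Without single libraries 6 to 9 were lower and 9 to 14 higher in H28O16.1 than in B0395.3. The dhs-6 call in B0395.3 was also lost with DESeq2's size factors (adjusted p = 0.0567), upper-quartile scaling (0.0673), no filter (0.122) and DESeq2 (0.0984). In H28O16.1 against L4440, dhs-4 passed without L4440 replicate 1 (1.01), dhs-8 without L4440 replicate 3 (-0.58), dhs-29 without H28O16.1 replicate 3 (-0.45) and dhs-12 without H28O16.1 replicate 1 (-0.19), with upper-quartile scaling (-0.13) and with a minimum count of 50 (-0.12). In B0395.3 against L4440, dhs-5 (-0.23), dhs-18 (0.22), dhs-24 (0.10) and dhs-27 (0.20) passed without H28O16.1 replicate 3. There dhs-18 also passed without L4440 replicate 3 (0.32), with DESeq2's size factors (0.24), with upper-quartile scaling (0.25) and without a filter (0.23). A fit of these groups alone passed dhs-18 (0.23), dhs-24 (0.10) and dhs-27 (0.20) too. In H28O16.1 against B0395.3, dhs-12 passed without H28O16.1 replicate 1 (-0.14), dhs-22 without H28O16.1 replicate 3 (0.07) and dhs-29 without H28O16.1 replicate 3 (-0.48) or B0395.3 replicate 2 (-0.45). In that comparison dhs-29 also passed without a filter (-0.34). The causes of the other changes were not tested. Depth limits dhs-4, dhs-8, dhs-15, dhs-16 and dhs-23, which had 8 to 61 counts in a library. It also limits dhs-7 in B0395.3, with 32 to 37 counts, and dhs-26 in H28O16.1, with 14 to 32 counts.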
